A study of Gallus gallus with 6 samples.

Results

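HBAD, HBAA, HBG2, HBE, HBE1 and SLC4A1 are 6 of the 19219 genes counted in chicken bursal B-cells, 5 globin genes and the anion exchanger of the red cell. They were taken by these symbols from the 6444 genes to which the deposited files give a name, which are genes that the authors had called. The choice was made with earlier results of these data known. RNA-Seq was performed on B-lymphocytes of the bursa of Fabricius from embryos of the Hy-Line W-36 commercial layer line, at embryonic day 16 (ED16, 3 libraries, ED16_1 to ED16_3) and embryonic day 19 (ED19, 3 libraries, ED19_4 to ED19_6). The labels give no treatment and no genotype beyond the line, which both stages share. Each library came from its own pool of 52 to 55 bursas, so the spread between libraries is a spread between pools and not between embryos. The cells were lymphocytes taken from a Histopaque density gradient, and no sort on a B-cell surface marker is described.

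Haemoglobin is a tetramer of alpha-type and beta-type globin chains, each holding a heme group, and it fills the cytoplasm of red cells. In birds the alpha-type and beta-type genes lie in separate clusters, and red cells of the early embryo and of later stages use different members of each cluster. Bird red cells keep their nucleus and circulate with it, and they enter any tissue sample that holds blood. SLC4A1, also called band 3 or AE1, exchanges chloride for bicarbonate across the red cell membrane and anchors the membrane skeleton.

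The symbols in the files follow the naming of human genes, so the chicken roles were read by symbol from RefSeq (assembly GRCg7b). HBAA is there a synonym of HBA1, the alpha-A globin of later embryos and adults, and HBAD is alpha-D globin, which lies between HBZ and HBA1 on chromosome 14. HBG2 is a synonym of HBBA, the beta-A globin of the adult, and HBE1 has the synonym HBBH, the beta-H or hatching globin. HBE has the synonym HBBE, the epsilon globin of the early embryo, and on chromosome 1 the order is HBE, HBBA, HBE1 and HBBR. SLC4A1 lies on chromosome 27. HBZ and HBBR, the other embryonic globins of these clusters, carry no name in the files and were not analysed here. Globin genes of a cluster are alike in sequence, so the division of reads between them depends on how the authors' alignment and counting treated reads that fit more than 1 gene.

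The libraries held between 27087661 and 34614652 counts on genes. In edgeR's quasi-likelihood F test on these counts with Benjamini-Hochberg adjustment, 9240 of 13923 tested genes differed between the stages (threshold 0.05), which is 66.4% of them. Genes higher at ED16 were 35.6% of those tested and genes higher at ED19 were 30.8%. A name is given only to genes that the authors had called, so 99.5% of the 6103 tested genes with a name passed the threshold here, 51.9% as higher at ED16 and 47.6% as higher at ED19. All 6 genes passed the filter on low counts, passed the threshold and were higher at ED16, and because of the naming nothing can be read from that count. In all 6 the lowest ED16 library lay above the highest ED19 library in CPM, the count scaled by the library total. The same held for the 6 in CPM further scaled by TMM normalization, in which it held for 38.4% of all tested genes. A log2 fold change of at least 4, past the threshold, was found for 5 of the 6 and for 7.02% of all tested genes, named or not. The shares of 38.4% and 7.02% are not given here for genes with a name, from which the 6 were taken. Log2 fold changes are given as ED16 over ED19, so a positive value is higher at ED16. Their median was 4.64 over the 6 genes, 0.05 over all tested genes and 0.76 over tested genes with a name.

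**Figure D1:**
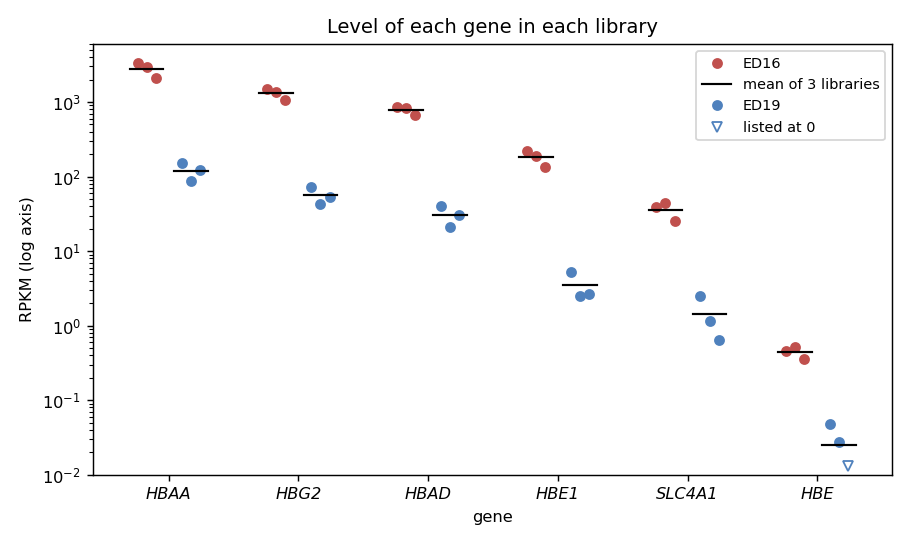
Level of each gene in each library in RPKM (counts scaled by gene length and library total) on a log axis, with ED16 in red, ED19 in blue and a line at the mean of 3 libraries. Each gene sits higher in every ED16 library, from HBAA with means of 2779.5 and 120.1 down to HBE with 0.444 and 0.0250, and the open triangle marks HBE in ED19_6, which had 0 counts.

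The alpha-type gene HBAA had 63132, 49242 and 36335 counts in ED16_1, ED16_2 and ED16_3, and 2771, 1392 and 1836 counts in ED19_4, ED19_5 and ED19_6. Its level was 2779.5 ± 611 RPKM (SD, n = 3) at ED16 and 120.1 ± 32.4 RPKM (SD, n = 3) at ED19. The lowest ED16 library was 13.9 times the highest ED19 library in CPM. HBAA encodes the alpha chain of the major adult haemoglobin of the chicken, and it had the highest RPKM of the 6 genes in every library. It was the 36th, 40th and 79th gene by RPKM in the ED16 libraries and the 575th, 1140th and 856th in the ED19 libraries. Its log2 fold change was 4.57 ± 0.29 (SE), a 23.8-fold higher level at ED16 (edgeR's quasi-likelihood F test, adjusted p = 3.0e-05). With each library corrected for gene length the log2 fold change was 3.59. The gene model is short, at 555 bases against a median of 2063 bases for tested genes, and 826 tested genes were shorter.

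HBAD encodes the alpha-D chain, which forms the minor haemoglobin of chicken red cells. It had 30165, 24983 and 21061 counts in the ED16 libraries and 1347, 617 and 839 counts in the ED19 libraries. Its level was 786 ± 103 RPKM (SD, n = 3) at ED16 and 30.8 ± 9.68 RPKM (SD, n = 3) at ED19. The stages were far apart, with the lowest ED16 library at 16.5 times the highest ED19 library in CPM. The log2 fold change was 4.72 ± 0.27 (SE), or 26.3-fold, with an adjusted p of 2.3e-05 in edgeR's quasi-likelihood F test. It was 4.13 after the correction for gene length, for a gene model of 1008 bases.

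The proportion of the alpha-type genes to each other overlapped between the stages, while both were lower in level at ED19. HBAD had 0.478, 0.507 and 0.580 counts for each HBAA count in the ED16 libraries and 0.486, 0.443 and 0.457 in the ED19 libraries. The mean was 0.522 ± 0.0524 (SD, n = 3) at ED16 and 0.462 ± 0.0219 (SD, n = 3) at ED19. The stages overlapped, since ED16_1 lay below ED19_4. The difference did not pass the exact permutation test over libraries (two-sided p = 0.2, adjusted p = 0.27 over the 4 ratios tested), in which 3 libraries against 3 allow no p below 0.1. Per length, HBAA stood further above HBAD, and the ratio of RPKM values was 0.287 at ED16 and 0.254 at ED19.

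Among the beta-type genes HBG2, the beta-A chain that pairs with alpha chains in adult haemoglobin, held most of the counts. It had 71744, 56271 and 46939 counts in the ED16 libraries and 3328, 1713 and 1998 counts in the ED19 libraries. Its level was 1302 ± 206 RPKM (SD, n = 3) at ED16 and 55.9 ± 15.2 RPKM (SD, n = 3) at ED19. No library of one stage reached the range of the other, and the lowest ED16 library was 14.9 times the highest ED19 library in CPM. The log2 fold change was 4.59 ± 0.26 (SE), or 24.1-fold (edgeR's quasi-likelihood F test, adjusted p = 2.3e-05). HBG2 had more counts than HBAA in every library but a lower RPKM, since its gene model is 1396 bases long.

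HBE1, the beta-H chain named for its presence around hatching, had 9949, 7525 and 5494 counts in the ED16 libraries and 226, 94 and 95 counts in the ED19 libraries. Its level was 182 ± 43.2 RPKM (SD, n = 3) at ED16 and 3.46 ± 1.53 RPKM (SD, n = 3) at ED19. Of the 6 genes it had the widest gap between the stages, with the lowest ED16 library at 25.7 times the highest ED19 library in CPM. The log2 fold change was 5.77 ± 0.33 (SE), or 54.4-fold, with an adjusted p of 2.3e-05 in edgeR's quasi-likelihood F test, and it was the 421st of 13923 tested genes in order of log2 fold change. HBG2, HBAA, HBAD and SLC4A1 stood between the 694th and the 740th place in that order.

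HBE, the epsilon chain of the early embryo, was near the limit of detection. It had 20, 20 and 14 counts in the ED16 libraries and 2, 1 and 0 counts in the ED19 libraries, where 3 counts correspond to between 0.0867 and 0.111 CPM. Its mean of 0.444 RPKM at ED16 was the lowest of the 6 genes. The 54 counts at ED16 and 3 counts at ED19 gave a ratio of rates of 16.7, with an exact 95% interval of 5.42 to 83.5 that covers counting error only. The difference passed the threshold in edgeR's quasi-likelihood F test (adjusted p = 0.00078). The counts are uncertain beyond their interval, since reads that also fit HBG2 or HBE1 cannot be set apart in a table of counts.

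The balance within the beta-type genes did not overlap between the stages, but the difference did not pass the permutation test. HBE1 made up 12.2%, 11.8% and 10.5% of the beta-type globin counts in ED16_1, ED16_2 and ED16_3, and 6.36%, 5.20% and 4.54% in ED19_4, ED19_5 and ED19_6. The mean share was 11.5% ± 0.892 (SD, n = 3) at ED16 and 5.36% ± 0.919 (SD, n = 3) at ED19, with the ED16 mean at 2.14 times the ED19 mean. The lowest ED16 library lay above the highest ED19 library. The exact permutation test gave a two-sided p of 0.1, the smallest that 3 libraries against 3 allow, and 0.2 after adjustment over the 4 ratios tested. This share does not depend on the library's total or on its scaling, and it was chosen for a test with the fold changes of both genes already known.

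HBG2 took the complement, with 88.5% ± 0.892 (SD, n = 3) of beta-type counts at ED16 and 94.6% ± 0.945 (SD, n = 3) at ED19 (exact permutation test, two-sided p = 0.1, adjusted p = 0.2). HBE held 0.0275% of beta-type counts at ED16 and 0.0372% at ED19, with overlapping libraries (exact permutation test, two-sided p = 0.7). In ED19_6 the exact 95% interval of the HBE share ran from 0 to 0.176% of 2093 beta-type counts. The interval of each ED19 library included the mean share at ED16, so a small change in the HBE share was not detectable at this depth.

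The balance between the chain types depended on whether gene length was counted. There were 1.13 ± 0.0352 (SD, n = 3) alpha-type counts for each beta-type count at ED16 and 1.18 ± 0.0861 (SD, n = 3) at ED19, with overlapping libraries and no test planned. Per length, from RPKM, the ratio was 2.39 ± 0.0972 (SD, n = 3) at ED16 and 2.54 ± 0.186 (SD, n = 3) at ED19, again with overlapping libraries. It rests on gene models of 555 bases for HBAA against 1396 for HBG2 and 1311 for HBE1. Whether these lengths match the transcripts was not tested. Together the 5 globin genes held 0.506%, 0.459% and 0.352% of all gene counts in ED16_1, ED16_2 and ED16_3, and 0.0233%, 0.0132% and 0.0176% in ED19_4, ED19_5 and ED19_6. Exact 95% binomial intervals, which cover counting error only, ran for example from 0.503% to 0.508% in ED16_1 and from 0.0128% to 0.0136% in ED19_5, so counting error was far below the spread between libraries. The mean share was 0.439% ± 0.0786 (SD, n = 3) at ED16 and 0.0180% ± 0.00505 (SD, n = 3) at ED19, and the ratio of these means was 24.4. About 1 count in 197 to 283 was a globin count at ED16, and 1 in 4295 to 7571 at ED19. In RNA from a mixture of cells, fewer cells of a type and less RNA in each such cell cannot be told apart.

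**Figure D2:**
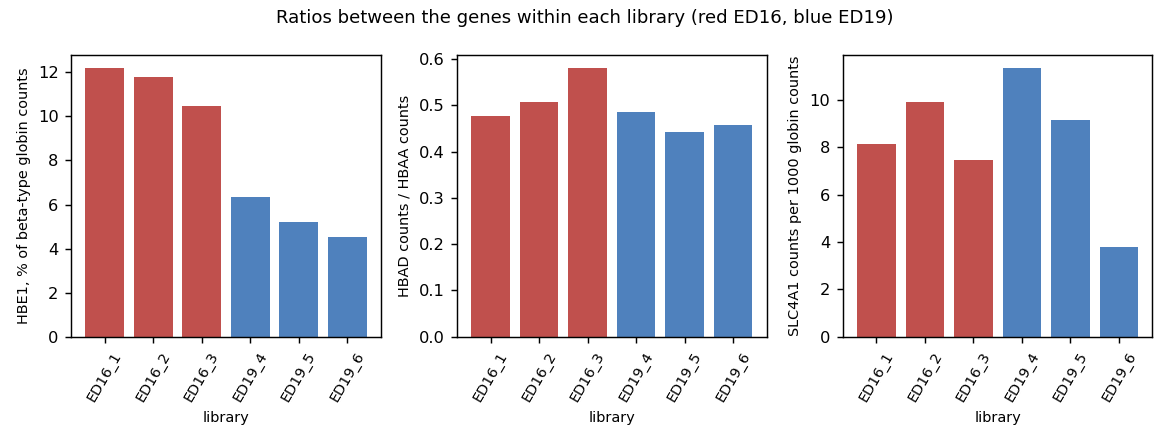
Ratios between the genes within each library, as bars from 0, with ED16 in red and ED19 in blue. The HBE1 share of beta-type globin counts (left) is 10.5% to 12.2% at ED16 and 4.54% to 6.36% at ED19, whereas HBAD over HBAA counts (middle) and SLC4A1 per 1000 globin counts (right) overlap between the stages.

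SLC4A1, whose product is among the most abundant proteins of the red cell membrane, had 1425, 1371 and 819 counts in the ED16 libraries and 87, 35 and 18 counts in the ED19 libraries. Its level was 36.0 ± 9.67 RPKM (SD, n = 3) at ED16 and 1.44 ± 0.974 RPKM (SD, n = 3) at ED19. The stages did not overlap, but the ED19 libraries spread 3.97-fold in CPM, against 1.70-fold to 2.11-fold for HBAD, HBAA, HBG2 and HBE1. The log2 fold change was 4.70 ± 0.43 (SE), or 25.9-fold (edgeR's quasi-likelihood F test, adjusted p = 7.9e-05). Without ED19_4, its highest ED19 library, the log2 fold change was 5.31, and with the correction for gene length it was 4.11.

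Set against the globins of the same library, SLC4A1 had 8.14, 9.93 and 7.46 counts for each 1000 globin counts in the ED16 libraries and 11.3, 9.17 and 3.78 in the ED19 libraries. The means were 8.51 ± 1.28 (SD, n = 3) and 8.09 ± 3.89 (SD, n = 3). The ED19 libraries lay on both sides of the ED16 range, and no test of this ratio was planned.

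In RPKM, which sets levels of genes side by side per length of the gene model, the order was HBAA, HBG2, HBAD, HBE1, SLC4A1 and HBE at both stages. This order holds only as far as the gene models match the transcripts, which was not tested. HBAA stood 2.14 times above HBG2 at ED16 and 2.15 times at ED19, and HBG2 stood 1.65 and 1.81 times above HBAD. HBAD stood 4.33 times above HBE1 at ED16 and 8.90 times at ED19. HBE1 stood 5.04 times above SLC4A1 at ED16 and 2.41 times at ED19, with gene models of 1311 bases for HBE1 and 1047 for SLC4A1. Each gene was above the next in the order in all 3 libraries of a stage. The ranges of neighbours did not overlap, except for HBE1 and SLC4A1 at ED19, at 2.48 to 5.23 and 0.635 to 2.52 RPKM.

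Most of the globin genes also shared their order of libraries within a stage. HBAD, HBAA, HBG2 and HBE1 were all highest in ED16_1 and lowest in ED16_3 at ED16, and highest in ED19_4 and lowest in ED19_5 at ED19. SLC4A1 and HBE were highest in ED16_2 at ED16 and lowest in ED19_6 at ED19. HBE had only 20, 20 and 14 counts in the ED16 libraries and 2, 1 and 0 in the ED19 libraries. Its 95% counting intervals overlapped within each stage, so its order of libraries is not resolved. Likeness of profile was measured as the root mean square difference of TMM-scaled log2 CPM over the 6 libraries, each gene centred on its own mean. Among all tested genes HBG2 was the nearest to HBAA, at 0.0818, and also to HBAD, at 0.104, with HBAA second nearest to HBAD at 0.125. SLC4A1 lay 0.487 to 0.528 from these 3 globins, and HBE1, whose change was larger, lay 0.558 to 0.636 from them. Many other tested genes lay nearer to these 3 globins. In order of nearness SLC4A1 was between the 260th and the 344th place and HBE1 between the 337th and the 518th. HBE was between the 780th and the 874th place. The 6 libraries share their stage contrast, so these distances are a description of these libraries only.

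**Figure D3:**
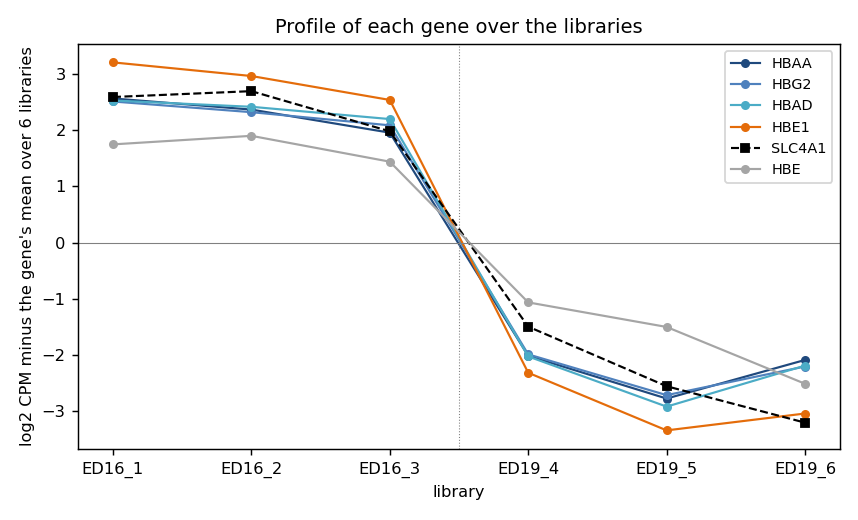
Profile of each gene over the 6 libraries, as TMM-scaled log2 CPM minus the gene's own mean, where the lines join the points of 1 gene and imply no order of libraries. HBAA, HBG2 and HBAD lie on top of each other, HBE1 spans a wider range, and SLC4A1 and HBE are lowest in ED19_6 where the other globins are lowest in ED19_5. HBE had 2, 1 and 0 counts in the ED19 libraries, so its order there is within counting error.

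Outside the 6 genes, the 10 named genes with a mean log2 CPM of at least 3 whose profiles lay nearest to the mean profile of the 6 included KIF1A, CSRP2, CLDN1, PLK2, BCAR1, AKR1D1, EPCAM, KRT19 and SPARC, in that order. Their distances ran from 0.252 for KIF1A to 0.369 for SPARC. KIF1A encodes a motor of axonal transport and CSRP2 a LIM domain protein. CLDN1, EPCAM and KRT19 encode a tight junction protein, an adhesion molecule and a keratin of epithelia, and SPARC encodes a matrix protein. KIF1A had 1096, 659 and 600 counts in the ED16 libraries and 49, 34 and 21 counts in the ED19 libraries, and its log2 fold change was 4.45. By Pearson correlation of the profiles, 3 of these 10 genes were again among the nearest 10.

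The other genes of red cells were followed in lists of transcription factors, heme synthesis, iron and erythropoietin signalling, membrane and skeleton, and enzymes and chromatin. Of 73 listed genes 34 had a name in the files, and all of these were tested. In edgeR's quasi-likelihood F test 23 of them were higher at ED16 and 11 were higher at ED19. The 23 are 67.6% of the 34, against 51.9% of all tested genes with a name, and the median log2 fold change was 1.38, against 0.76 for those genes. GATA1, KLF1, ALAS2, ANK1, EPB41, TFRC, EPOR, SLC25A37 and CA2, which help to define the lineage, had no name there and were not analysed here.

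Of 7 transcription factors 6 were higher at ED16, with a median log2 fold change of 1.76. The summed level of the 7 went the other way, at 427 to 517 CPM at ED16 and 572 to 639 CPM at ED19. In CPM, the scale of that sum, BCL11A had the highest level of them. Per length LDB1 stood above it at ED16, at 113 against 57.5 RPKM, and below it at ED19, at 34.9 against 105 RPKM. ZFPM1, the partner of GATA1 also called FOG1, had 455, 418 and 299 counts in the ED16 pools and 24, 24 and 12 in the ED19 pools, giving a log2 fold change of 4.24 ± 0.29 (SE). TAL1, a basic helix-loop-helix factor needed for blood formation and named SCL in the files, had 220, 205 and 174 counts in the ED16 pools and 12, 10 and 10 in the ED19 pools, giving a log2 fold change of 4.15 ± 0.29 (SE). HEMGN, a nuclear protein of erythroid progenitors, had 38 to 48 counts in the ED16 libraries and 5 to 10 in the ED19 libraries. BCL11A, which represses globin genes in human erythroid cells and is also a factor of B-cells, went the other way with a log2 fold change of -0.83 ± 0.16 (SE), and it is on the B-cell list as well.

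Of 3 genes of heme synthesis, UROD, which encodes uroporphyrinogen decarboxylase, and ABCB6, a porphyrin transporter, were higher at ED16, with log2 fold changes of 1.25 and 1.45. SLC25A38, the mitochondrial carrier that imports glycine for heme, was higher at ED19, with a log2 fold change of -1.01. These changes were far smaller than those of the globins. The summed level of the 3 genes was 74.5 to 80.8 CPM at ED16 and 39.5 to 44.0 CPM at ED19.

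Of 5 genes of iron handling and erythropoietin signalling, 3 were higher at ED16. The summed level of the 5 was 3506 to 3768 CPM at ED16 and 1733 to 2400 CPM at ED19. Most of this sum came from 1 gene, FTH1, at 3168 to 3451 CPM at ED16 and 1373 to 2107 CPM at ED19. The sum therefore mainly follows FTH1 and not the list as a whole. STEAP3, the ferrireductase that acts on iron from transferrin, had 107, 112 and 78 counts in the ED16 pools and 14, 5 and 6 in the ED19 pools, giving a log2 fold change of 3.52 ± 0.39 (SE). STAT5B, named STAT5 in the files, had a log2 fold change of 1.31 ± 0.14 (SE). JAK2, the kinase of the erythropoietin receptor and of other cytokine receptors, was higher at ED19 with a log2 fold change of -2.20 ± 0.34 (SE).

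Of 11 membrane and skeleton genes 8 were higher at ED16, with a median log2 fold change of 1.68. The summed level of the 11 overlapped between the stages, at 373 to 417 CPM at ED16 and 383 to 580 CPM at ED19. ADD2, the beta chain of adducin, had 212, 142 and 109 counts in the ED16 pools and 20, 5 and 2 in the ED19 pools, and DMTN, which bundles actin in the skeleton, had 284, 227 and 112 counts in the ED16 pools and 25, 19 and 7 in the ED19 pools. Their log2 fold changes were 4.08 ± 0.56 (SE) and 3.57 ± 0.44 (SE). SPTB, the beta chain of erythroid spectrin, had 1250, 1093 and 693 counts in the ED16 pools and 221, 140 and 62 in the ED19 pools, giving a log2 fold change of 2.84 ± 0.34 (SE). RHAG, the glycoprotein of the Rh complex, had a log2 fold change of 2.61. Like SLC4A1, ADD2, DMTN, SPTB and RHAG were highest in ED19_4 and lowest in ED19_6 among the ED19 libraries. ADD1, XK and TMOD3, named here after their values were seen because they went the other way, had log2 fold changes of -0.96, -1.37 and -2.03.

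Of 8 enzyme and chromatin genes 4 were higher at each stage. The summed level of the 8 overlapped between the stages, at 1393 to 1525 CPM at ED16 and 1412 to 1423 CPM at ED19. TSPO2, a membrane protein of erythroid cells, had 1193, 1160 and 1177 counts in the ED16 pools and 40, 29 and 24 in the ED19 pools, giving a log2 fold change of 5.20 ± 0.19 (SE). H1F0, which has the synonym H5 in RefSeq and is the linker histone of nucleated bird red cells under that name, had 2122, 1787 and 1857 counts in the ED16 pools and 65, 40 and 50 in the ED19 pools, giving a log2 fold change of 5.16 ± 0.21 (SE). Both passed with adjusted p values of 1.0e-05 and 1.3e-05 in edgeR's quasi-likelihood F test. Their ED16 libraries were nearly level, whereas the globins were 1.29 to 1.63 times higher in ED16_1 than in ED16_3. GPX1, a glutathione peroxidase of red and other cells, had a log2 fold change of 1.94, and BNIP3L, which clears mitochondria from maturing red cells in mammals and was named after its values were seen, had -1.59.

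Of the other globins in the list only CYGB, the cytoglobin of tissues outside the red cell, had a name. It had 21, 10 and 11 counts in the ED16 pools and 1, 0 and 0 in the ED19 pools and passed the threshold (edgeR's quasi-likelihood F test, adjusted p = 0.0010).

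**Figure D4:**
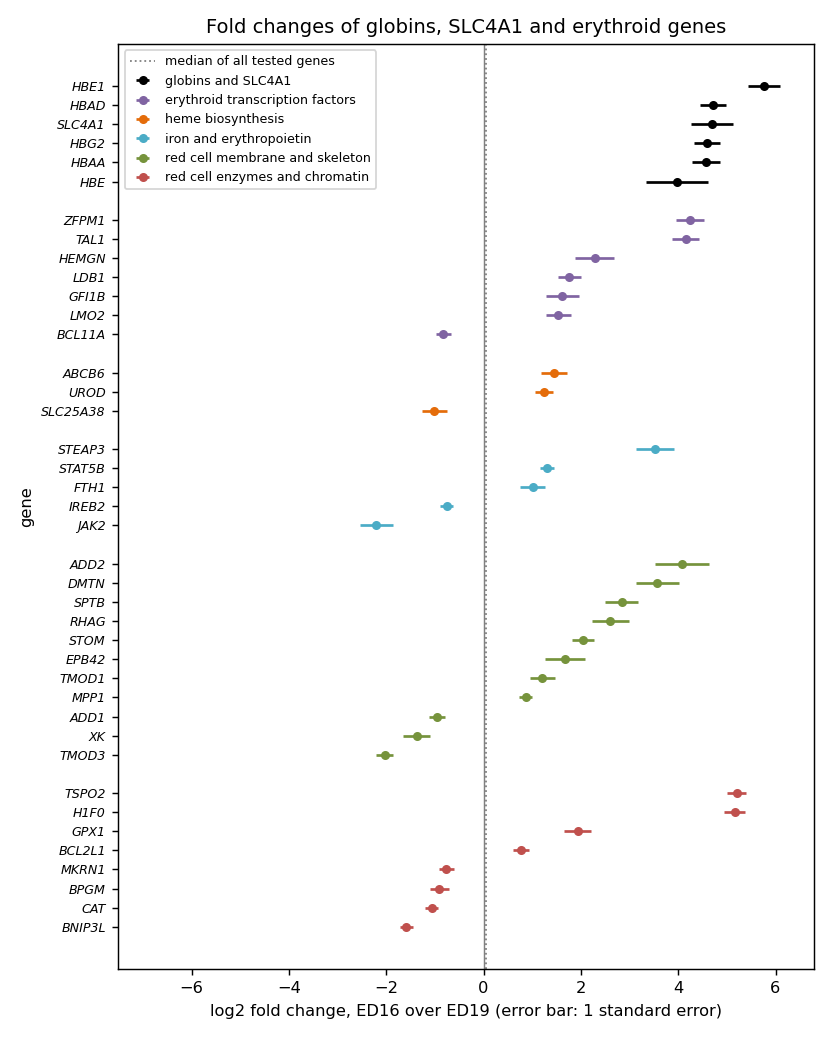
Log2 fold change (ED16 over ED19, error bar 1 standard error) of the 5 globins and SLC4A1 in black and of the 34 listed red cell genes in colour by list. The black points lie between 3.97 for HBE, whose fitted value rests on 3 counts at ED19, and 5.77 for HBE1, and only TSPO2 and H1F0 of the listed genes exceed 5 while 11 lie below 0.

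Markers of B-cells and of other cells were followed beside these genes. Only genes that the authors had called carry a name, so listed markers that they had not called could not appear. Of all tested genes with a name, 51.9% were higher at ED16 and 47.6% were higher at ED19. The B-cell list had 9 named members out of 15, each of them higher at ED19. Their summed level was 1368 to 1529 CPM at ED16 and 3055 to 3969.7 CPM at ED19. LYN had the highest level of them, at 355 to 496 CPM at ED16 and 1081 to 1491 CPM at ED19. Whether B-cells alone carried these genes was not tested. BLNK, the adaptor below the B-cell receptor, had a log2 fold change of -1.28 ± 0.16 (SE). CD79B had no name and was not analysed here. All 8 T-cell markers with a name, of 9 listed, were higher at ED16 (326 to 472 CPM against 138 to 213 CPM at ED19). So were all 6 named markers of macrophages and granulocytes, of 11 listed (80.6 to 123 CPM against 19.9 to 31.8 CPM).

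Thrombocytes, which are nucleated cells of bird blood, had 6 of 7 tested markers higher at ED16, from 14 listed. Their summed level overlapped between the stages, at 145 to 198 CPM at ED16 and 117 to 242 CPM at ED19. FLI1, a factor of other blood cells too, had the highest level of them, and with a log2 fold change of -0.90 it was the marker that was higher at ED19. ITGA2B, the platelet integrin chain, had 249, 206 and 137 counts in the ED16 pools and 18, 0 and 0 in the ED19 pools. GP9, with 5 to 9 counts at ED16 and none at ED19, was too low to be tested, and VWF was at 0 in every ED19 library.

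Markers of fibroblasts, epithelium and kidney were higher at ED16 as well. All 6 tested fibroblast markers, of 8 listed, were higher (84.3 to 100.1 CPM against 19.1 to 28.3 CPM). So were all 8 listed epithelial markers (184 to 400.1 CPM against 7.75 to 11.2 CPM). All 6 kidney markers with a name, of 10 listed, were higher, at 131 to 404 CPM against 2.03 to 3.77 CPM. Of these, AGXT and PIPOX were at 0 in all ED19 libraries. Of 4 tested endothelial markers, from 8 listed, 3 were higher at ED16. The summed level of the named endothelial markers overlapped between the stages, at 6.26 to 9.42 CPM at ED16 and 8.56 to 29.3 CPM at ED19. PECAM1, an adhesion molecule of endothelium that blood cells also carry, had the highest counts of them and was higher at ED19, with a log2 fold change of -1.87, and KDR was at 0 in all ED19 libraries. ED16_1 held 3.07 times the kidney marker level of ED16_3 and 2.18 times the epithelial level. The same ratio was 1.19 to 1.39 for the fibroblast, thrombocyte, T-cell, macrophage and granulocyte, and endothelial markers, and 0.90 for B-cell markers. It was 1.29 to 1.63 for HBAD, HBAA, HBG2, HBE1 and SLC4A1. Without ED16_1 the log2 fold changes of these 5 genes were 4.44 to 5.61. Most of these markers and the globins were higher at the same stage, and the part of the marked cells in the globin result was not tested. The study's methods also state a lower mean RNA integrity at ED16. Every ED16 library is listed there with a higher GC content of reads and a smaller mapped share than any ED19 library. These differences cannot be told apart from the stage.

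**Figure D5:**
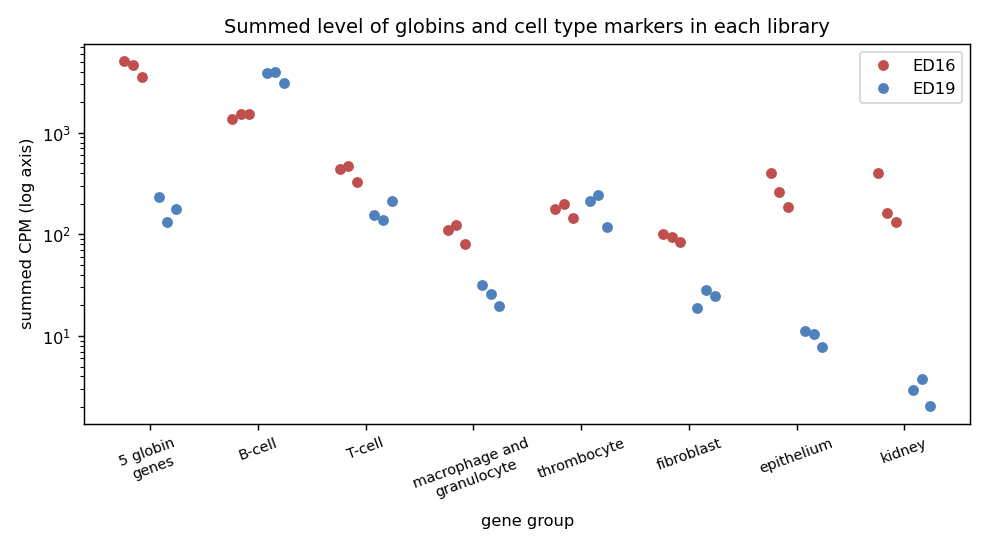
Summed CPM of the 5 globin genes and of 7 marker lists in each library on a log axis, with ED16 in red and ED19 in blue. B-cell markers rise from 1368 to 1529 CPM at ED16 to 3055 to 3969.7 CPM at ED19, while kidney markers lie at 131 to 404 CPM at ED16 and at 2.03 to 3.77 CPM at ED19 and thrombocyte markers overlap.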

How the data were processed

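Poly-A RNA of 6 libraries was sequenced as paired-end reads. The authors aligned clean reads to galGal4 with TopHat2 (version 2.0.12 in the submitters' processing notes), counted reads per gene with HTSeq and deposited raw counts. The strand setting of the counting is not given in the sources used here. The authors also deposited RPKM values, which equalled the counts scaled by gene length and library total. A table of called genes gave symbols only. Its stage signals, fold changes and p-values are the authors' comparison and were not used.

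Counts were filtered with filterByExpr, normalized by TMM and tested with edgeR 4.0.16 in R 4.3.3 (quasi-likelihood F test, Benjamini-Hochberg over all tested genes, threshold 0.05). The standard error is the log2 fold change divided by the square root of F. Ratios within libraries were compared by exact permutation with scipy 1.17.1, and intervals are exact binomial or Poisson intervals (95%). Code was tested on simulated data. Alternatives were upper-quartile and median-of-ratios scaling, no filter, a minimum of 10 counts per library, DESeq2 1.42.0, limma 3.58.1 on log2(RPKM + 1), a loess correction for gene length (span 0.5), the 6 genes left out of the totals, each library left out and an adjusted p below 0.01.

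The 6 genes, the gene lists and the tests were chosen with earlier results of these data known. Named were the 6 genes, other globins found, the 3 genes of each red cell list with the largest absolute log2 fold change, a few defining genes wherever found and the 10 genes nearest in profile. The 6 genes were left out of these 10, which the rule had not foreseen. Profiles used TMM-scaled log2 CPM with a prior count of 1. Some items covered by the rule are not reported here.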

Additional observations from a re-analysis of the deposited data

How the results depend on the processing

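In all alternatives that gave a value, each of the 6 genes stayed higher at ED16 with an adjusted p of at most 0.0048, which HBE had without ED16_2. HBE gave no value under the minimum of 10 counts per library. The log2 fold change ranged over the alternatives from 4.13 to 4.93 for HBAD, 3.59 to 4.79 for HBAA, 4.24 to 4.80 for HBG2, 5.36 to 6.12 for HBE1, 3.96 to 5.31 for SLC4A1 and 0.49 to 4.69 for HBE. The values of 0.49 and 3.96 came from limma on log2(RPKM + 1), where the pseudocount of 1 shrinks the change of low genes, and 4.69 came without ED19_4. Leaving out each library gave 4.48 to 4.89 for HBAD, 4.36 to 4.72 for HBAA, 4.40 to 4.74 for HBG2, 5.55 to 6.12 for HBE1, 4.34 to 5.31 for SLC4A1 and 3.51 to 4.69 for HBE, and 7851 to 10949 genes changed in all, the most without ED19_6. The length correction moved the median of all genes by -0.15, and 48.0% of called genes were then higher at ED16 against 53.6%. Upper-quartile scaling moved it by 0.21, with 62.1% higher at ED16. Relative to the median of all genes HBAA was at 3.68 after the length correction and at 4.52 before. From RPKM the ratio of HBAD to HBAA was 0.287 at ED16 and 0.254 at ED19, since it then includes the lengths. A correction for GC content was not run, because gene sequences were not used here. The GC content of reads differed between the stages, so its part in the fold changes was not tested. No paired analysis was possible because the stages share no replicate number. With 3 libraries in each stage the ratios could not reach an adjusted p below 0.05.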
